A study of Mus musculus with 51 samples.

Results

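Levels of 8 genes of cholesterol synthesis were followed through 6 groups of mouse mammary samples: Hmgcs1, Idi1, Fdps, Fdft1, Sqle, Lss, Cyp51 and Dhcr7. The rule takes all probe sets annotated to exactly 1 of these symbols and uses no measured value. They are 8 of 18192 genes with such a probe set, and 21 of 34944 probe sets. All 8 code for enzymes that make cholesterol and none for a protein that takes it up. RNA of 51 samples was hybridized to 1 Affymetrix mouse array each.

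The model carries a conditional Etv6-NTRK3 allele that Wap-Cre switches on. Wap is a milk protein gene, so its promoter drives Cre in secretory mammary epithelium, and Etv6-NTRK3 is a fusion of a transcription factor with the tyrosine kinase domain of a neurotrophin receptor. A floxed stop cassette before lacZ at the Rosa26 locus marks recombined cells. Sorted lacZ-positive cells of Wap-Cre;Etv6-NTRK3 mice came from hyperplastic glands (4 arrays, 4 mice), from primary tumors (8 arrays, 6 mice) and from tumors transplanted into RAG2-/- hosts (7 arrays, 5 mice of origin, passages 1 to 4). RAG2-/- hosts lack mature B and T cells. Whole tissue came from primary tumors of that model (23 arrays of 22 tumors, 14 mice), from tumors transplanted into RAG2-/- hosts (4 arrays, 2 mice of origin) and from glands of wild-type mice (5 arrays, 5 mice), which carry none of these alleles. Age, strain background and reproductive stage are not given in the sources used here. A level below is a log2 intensity of the gene's brightest probe set, with a floor of 5, and differences are log2 differences ± SE from limma. A gene was called at a Benjamini-Hochberg adjusted p under 0.05 over all 15150 genes tested, a filter that all 8 passed.

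Cholesterol is built from acetyl-CoA in the cytosol and endoplasmic reticulum. Hmgcs1 makes HMG-CoA, the substrate of the rate-limiting reductase. Idi1 interconverts the isoprene units that follow, and Fdps joins them into farnesyl diphosphate, the branch point to prenylated proteins, dolichol and ubiquinone. Fdft1, squalene synthase, commits farnesyl diphosphate to sterols. Sqle adds oxygen to squalene, Lss closes the rings to give lanosterol, Cyp51 removes a methyl group from lanosterol, and Dhcr7 catalyses the last reduction in 1 branch of the pathway. When sterol in the endoplasmic reticulum falls, Scap carries the precursors of the SREBP transcription factors to the Golgi, where they are cut, and the released factors activate these genes. Insig proteins hold Scap back when sterol is plentiful. In the mammary gland, lipid synthesis rises with lactation, and sterol is also needed for the membranes of dividing cells.

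Because these genes share regulation by SREBP, the sequence before their starts was read from the RefSeq promoter table of GRCm38.p6, which held 5 of them (Hmgcs1, Idi1, Lss, Cyp51 and Dhcr7). The windows of 4 genes are shown, chosen as the first enzyme of the set, an intermediate one, the gene that was lower in tumors and the gene with the largest difference. Each runs over the 250 bases before the listed start, on the gene's strand, 5′ to 3′. Capitals mark matches on either strand to TCACNCCAC, a form of the sterol response element, to CCAAT, the box read by NF-Y, and to GGGCGG, the box read by Sp1. No match overlaps another in these windows. Hmgcs1 lies at chr13:119690101-119690350 (plus strand), Idi1 at chr13:8885356-8885605 (plus strand), Lss at chr10:76531355-76531604 (plus strand) and Dhcr7 at chr7:143822917-143823166 (plus strand, 1 of 3 listed starts).
Hmgcs1: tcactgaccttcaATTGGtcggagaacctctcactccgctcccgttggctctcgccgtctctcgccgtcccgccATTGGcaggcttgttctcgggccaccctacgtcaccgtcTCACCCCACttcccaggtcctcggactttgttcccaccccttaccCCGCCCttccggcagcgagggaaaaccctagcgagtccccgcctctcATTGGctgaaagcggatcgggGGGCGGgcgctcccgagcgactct
Idi1: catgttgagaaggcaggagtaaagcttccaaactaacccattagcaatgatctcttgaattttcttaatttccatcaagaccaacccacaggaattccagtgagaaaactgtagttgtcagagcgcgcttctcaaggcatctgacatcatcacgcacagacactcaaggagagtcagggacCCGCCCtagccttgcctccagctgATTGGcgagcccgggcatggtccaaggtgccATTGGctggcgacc
Lss: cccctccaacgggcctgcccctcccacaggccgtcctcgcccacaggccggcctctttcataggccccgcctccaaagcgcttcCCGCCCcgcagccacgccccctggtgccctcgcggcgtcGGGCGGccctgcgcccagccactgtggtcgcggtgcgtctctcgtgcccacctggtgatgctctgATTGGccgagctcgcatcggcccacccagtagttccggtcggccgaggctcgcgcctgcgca
Dhcr7: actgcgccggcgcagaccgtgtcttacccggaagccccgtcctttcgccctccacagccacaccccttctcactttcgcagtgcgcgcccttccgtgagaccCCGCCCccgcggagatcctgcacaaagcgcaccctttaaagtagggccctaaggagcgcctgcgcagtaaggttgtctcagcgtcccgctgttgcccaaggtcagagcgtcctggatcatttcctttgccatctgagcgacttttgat

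TCACNCCAC was found in the window of Hmgcs1, at position -137 from the start, and in none of the other 6 member windows. It occurs in 1.05% of 32851 promoter windows of this length. CCAAT was found for all 5 genes, in 5 of 7 windows, against 33.8% of all windows. GGGCGG was found for all 5 genes as well, in 6 of 7 windows, against 32.7% of all windows. The Dhcr7 window printed here holds GGGCGG once and no CCAAT. These matches are descriptions of letters and say nothing of binding.

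Array medians lay between 42.9 and 57.8 intensity units, and precision is set by how many arrays a group has. The defining luminal markers Epcam, Krt8 and Krt18 were bright in all groups (lowest value of any array 9.82, 11.20 and 11.01). Some arrays stood apart in control probe sets. Hyperplasia replicates 1 and 2 had bright hybridization spike-in controls (up to 12.39, against a median of 8.74 in sorted primary tumors). Gland replicate 4 had the highest Gapdh and Actb 3′ over 5′ ratios of the glands (1.14 and 2.18), ratios that rise with RNA degradation. Sorted arrays fell on both sides of a Gapdh ratio of -0.1 (11 below, 8 at or above), and unsorted tumors had ratios from -0.06 to 0.59. Replicates come from different specimens, but among the sorted transplants D279T1P2 and D279T1P4 are 2 passages of 1 tumor. The p-values measure the spread between specimens and mice, and arrays of 1 mouse were treated as correlated.

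The first comparison asks how whole tumors differ from normal glands. Of the 8 genes, 5 were higher in unsorted primary tumors than in wild-type glands (Dhcr7, Fdps, Fdft1, Idi1 and Sqle), 1 was lower (Lss), and Hmgcs1 and Cyp51 were not called. Of all 15150 genes, 51% were called in this comparison, 29.4% higher and 21.6% lower. The median difference of the 8 genes was 0.87, against 0.10 over all genes tested. In whole tissue, fewer cells of a type and less RNA per cell cannot be told apart. The plot of all replicates shows the levels behind these counts.

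**Figure D1:**
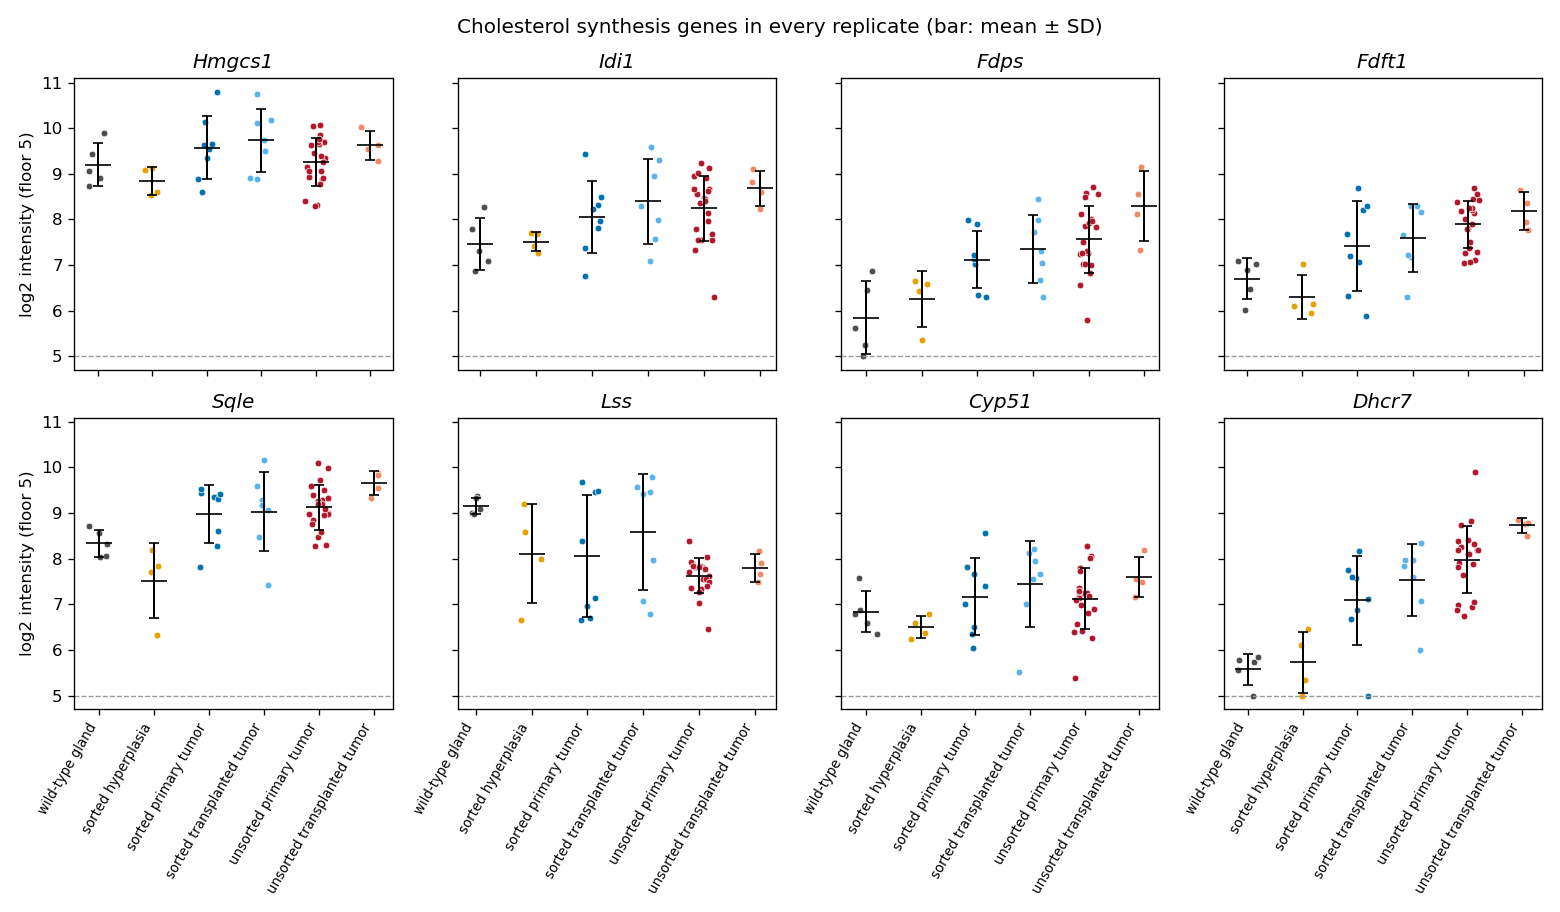
Log2 intensity (y axis, floor of 5 dashed) of each of the 8 genes in every replicate of the 6 groups (x axis), with the mean ± SD as a bar. Dhcr7 lies between 6.75 and 9.90 in unsorted primary tumors, above all 5 glands (5.00 to 5.85), and Lss lies lower in those tumors (6.45 to 8.38) than in all 5 glands (8.98 to 9.37).

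Hmgcs1, the synthase at the start of the pathway, had levels of 9.05, 9.43, 9.90, 8.90 and 8.73 in the 5 glands. In the 22 unsorted primary tumors it ran from 8.30 to 10.06 with a median of 9.30. The groups overlapped almost fully: 2 tumors lay above the highest gland and 3 below the lowest. The difference was 0.13 ± 0.28 (95% interval -0.43 to 0.70, limma adjusted p = 0.721).

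Idi1, the isomerase, had levels of 7.31, 7.78, 8.27, 6.86 and 7.09 in the glands, and from 6.31 to 9.23 with a median of 8.43 in the tumors. The groups overlapped, with 13 of 22 tumors above the highest gland and 1, tumor D14T2, below the lowest. Idi1 rose by 0.89 ± 0.34 (adjusted p = 0.0263). The call was lost without gland replicate 1 (adjusted p = 0.0567), 4 (0.104) or 5 (0.0799), with no mouse block (0.78, adjusted p = 0.0511) and with the Actb ratio as a covariate (0.68, adjusted p = 0.116).

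Fdps, farnesyl diphosphate synthase, had levels of 5.25, 6.46, 6.86, 5.00 and 5.61 in the glands and from 5.79 to 8.71 with a median of 7.5 in the tumors. In 19 of 22 tumors it exceeded the highest gland, and gland replicate 4 was at the floor. Fdps rose by 1.75 ± 0.35 (3.37-fold, adjusted p = 4.45e-05). With a floor of 100 intensity units in place of 32 the difference was 0.94 (adjusted p = 0.00733). The mean of its probe sets gave 0.88, which is no separate estimate, since the other probe set is at the floor on every array.

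Fdft1, squalene synthase, had levels of 6.90, 7.02, 7.08, 6.02 and 6.47 in the glands and from 7.04 to 8.69 with a median of 7.95 in the tumors. The groups touched at their edges, and 20 of 22 tumors lay above the highest gland. Fdft1 rose by 1.25 ± 0.30 (2.38-fold, adjusted p = 0.000527). As the mean of its 4 probe sets the difference was 0.56 (adjusted p = 0.000244). Sorted primary tumors listed before or among the glands ran from 5.89 to 7.19, and those listed after them from 7.68 to 8.68. In sorted transplants the same 2 sets overlapped (6.31 to 8.16 and 7.22 to 8.30). The part of sample order in the Fdft1 difference was not tested.

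Sqle, squalene epoxidase and a flux-controlling step after the reductase, had levels of 8.06, 8.56, 8.72, 8.04 and 8.33 in the glands. In the tumors it ran from 8.29 to 10.10 with a median of 9.14. The lowest tumors overlapped the glands, and 18 of 22 lay above the highest gland. Sqle rose by 0.84 ± 0.30 (adjusted p = 0.016), a call lost without gland replicate 4 (0.77, adjusted p = 0.0525) and with the Actb ratio as a covariate (0.68, adjusted p = 0.0717).

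Lss, the cyclase that makes lanosterol, went the other way. It had levels of 9.37, 9.09, 9.33, 9.01 and 8.98 in the glands and from 6.45 to 8.38 with a median of 7.74 in the tumors. All 22 tumors lay below all 5 glands. Lss fell by 1.47 ± 0.38 on the log2 scale (2.78-fold lower, adjusted p = 0.00129), and by 0.60 as the mean of its 3 probe sets (adjusted p = 0.00659). The value rests on a single probe set, 1420013_s_at. The 2 others did not pass the test: 1420014_at had a difference of -0.34 ± 0.35 (adjusted p = 0.436), and 1426913_at lay close to the floor in every group (highest level 5.69). Sorted primary tumors listed before or among the glands in the order of the samples had Lss from 8.40 to 9.68. In those listed after the glands Lss ran from 6.65 to 7.15. The part of sample order in the Lss difference was not tested.

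Cyp51, the lanosterol demethylase, had levels of 6.60, 6.88, 7.57, 6.36 and 6.80 in the glands and from 5.38 to 8.28 with a median of 7.18 in the tumors. The tumors enclosed the range of the glands, with 5 above and 2 below it. The difference was 0.35 ± 0.35 (95% interval -0.36 to 1.05, adjusted p = 0.43).

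Dhcr7, the reductase of the last step, had the largest difference. It had levels of 5.73, 5.85, 5.78, 5.57 and 5.00 in the glands, the last at the floor, and from 6.75 to 9.90 with a median of 8.12 in the tumors. Every tumor lay above every gland. Among all genes tested 14.3% had groups that did not overlap in this comparison, and Dhcr7 and Lss were the members that did so. Dhcr7 rose by 2.49 ± 0.36 (5.62-fold, adjusted p = 1.34e-07), and by 1.45 with a floor of 100 (adjusted p = 9.52e-05).

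Markers of other cell types were compared between these groups too. The summed intensity of 8 adipocyte markers ran from 2760 to 10200 in glands and from 335 to 7710 in the tumors. None of the 8 was at the floor throughout either group, and Fabp4 fell from a median of 12.45 to 7.03. Of the 7 adipocyte markers tested, 2 were called lower (Fabp4 and Car3) and 1 higher (Lipe, 0.57 ± 0.18). Their median difference was -0.2, and 51% of all genes tested were called. The 7 fibroblast markers summed to 17800 to 28900 in glands and 409 to 25800 in tumors, the 7 luminal markers to 9840 to 27100 and 16000 to 33500, and the 6 milk protein genes to 5000 to 15300 and 12400 to 59800. The part of these shifts in the differences of the 8 genes was not tested.

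**Figure D2:**
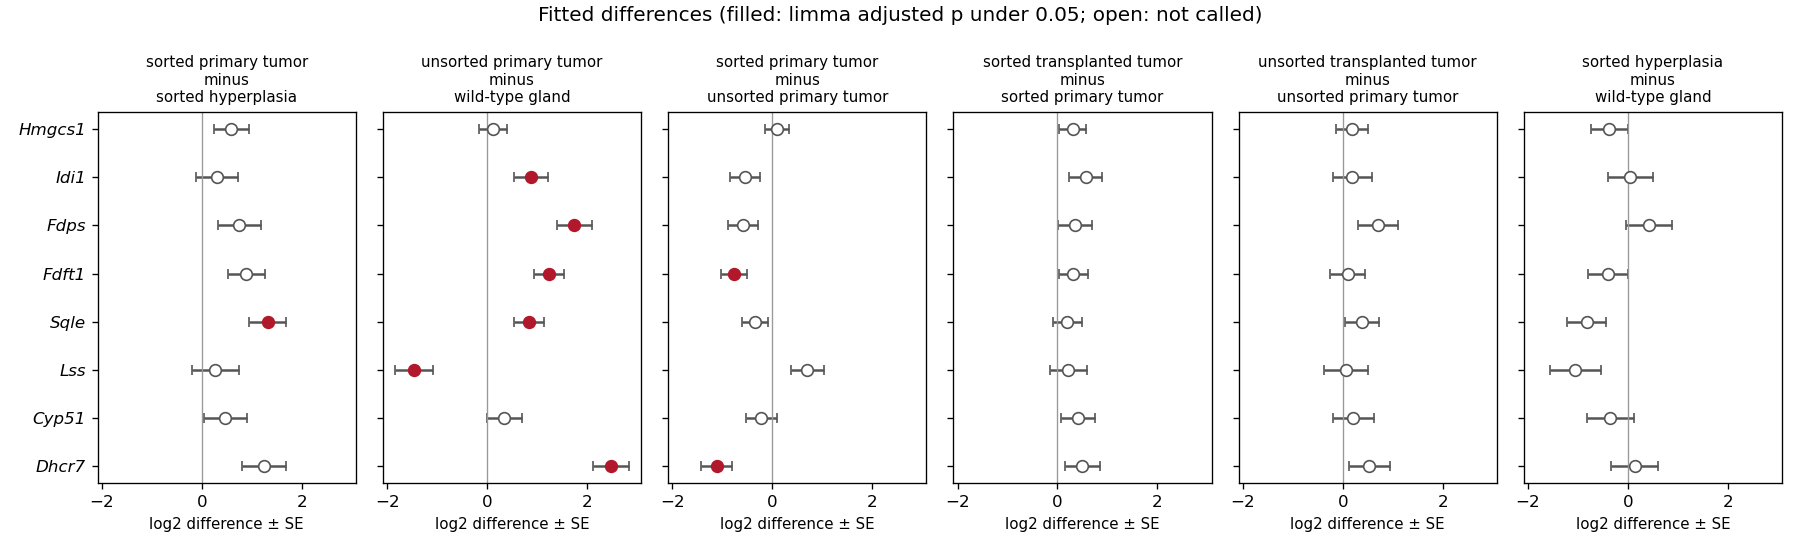
Log2 difference ± SE (x axis) of each gene (y axis) in the 6 comparisons of pairs of groups, filled where the limma adjusted p is under 0.05. Of the 48 points 9 are filled: 6 for tumor against gland, 1 for sorted tumor against hyperplasia (Sqle) and 2 for sorted against unsorted tumor (Fdft1 and Dhcr7).

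The second comparison asks what changed in lacZ-positive cells between hyperplasia and tumor. Only Sqle was called among the 8 genes, with higher levels in sorted primary tumors, while 3.79% of all genes tested were called (574 genes, 196 of them higher). All 8 fitted differences were above 0, as were 51.3% over all genes, and their median was 0.67 against 0.01. Sqle had levels of 6.32, 7.85, 8.19 and 7.71 in the 4 hyperplasia arrays and from 7.83 to 9.52 with a median of 9.34 in the 8 sorted tumors. The groups overlapped in 1 tumor, F405T, and the other 7 lay above the highest hyperplasia array. Sqle rose by 1.32 ± 0.37 (2.50-fold, adjusted p = 0.0277).

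That call rested on few arrays. The lowest Sqle level of hyperplasia, 6.32, was in replicate 1, the array with the brightest spike-in controls. Without replicate 1 the difference was 0.93 (adjusted p = 0.363), without replicate 2 1.43 (0.0512), and without both 0.89 (1.0). With the spike-in controls as a covariate it was 0.77 (adjusted p = 0.329). With these 2 groups fitted alone it was 1.32 (adjusted p = 0.342). Within sorted arrays of low Gapdh ratio it was 1.19 (adjusted p = 0.117), and within those of high ratio, where hyperplasia has 1 array, 1.48.

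Dhcr7 had the next largest difference. Its levels in hyperplasia were 5.00, 6.11, 5.34 and 6.46, and in sorted tumors they ran from 5.00 to 8.17, with 7 of 8 tumors above the highest hyperplasia array. Tumor F405T was at the floor. The difference was 1.24 ± 0.44 (adjusted p = 0.101). Fdft1 had levels of 5.94, 6.14, 6.10 and 7.02 in hyperplasia and from 5.89 to 8.68 in the tumors, with 6 of 8 tumors above the highest hyperplasia array. Its difference was 0.89 ± 0.37 (adjusted p = 0.181).

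The other 5 genes had smaller differences, none of them called. Fdps (5.36, 6.65, 6.58 and 6.44 in hyperplasia, 6.29 to 7.99 in tumors) differed by 0.75 ± 0.43 (adjusted p = 0.366). Hmgcs1 (8.54, 9.13, 9.08 and 8.60, against 8.60 to 10.80) differed by 0.59 ± 0.35 (adjusted p = 0.385). For both genes 6 of 8 tumors lay above the highest hyperplasia array. Cyp51 differed by 0.47 ± 0.43 (adjusted p = 0.613) and Idi1 by 0.30 ± 0.42 (adjusted p = 0.769). Lss had nearly equal means, 8.06 ± 1.34 (SD, n = 8) in tumors and 8.11 ± 1.09 (SD, n = 4) in hyperplasia, and a fitted difference of 0.27 ± 0.47 (adjusted p = 0.824) of the opposite sign, since the fit weights mice.

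Markers of other cell types were compared as well. All 6 B and plasma cell markers and 3 of 7 fibroblast markers were called lower in sorted tumors. None of the 7 macrophage markers was called, where 3.79% of all genes tested were called. The ranges of the sums overlapped in all 3 lists. The 7 macrophage markers summed to 11200 to 31800 in hyperplasia and 1220 to 22000 in sorted tumors, and the 6 B and plasma cell markers to 1400 to 21600 and 372 to 2190. The 7 fibroblast markers summed to 14700 to 22200 and 1600 to 28400, and none of these 3 lists had a gene at the floor throughout hyperplasia. Their part in the Sqle difference was not tested.

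Among the sorted arrays Lss separated by the Gapdh control ratio. It lay between 8.0 and 9.80 on the 11 arrays with a ratio below -0.1 and between 6.65 and 7.98 on the 8 others, with no overlap. The same 2 sets of arrays also parted in their spike-in controls (9.03 to 12.39 and 8.03 to 8.80) and in the order of the samples. Glands had Lss between 8.98 and 9.37 at Gapdh ratios from -0.3 to 1.14, on both sides of -0.1. In the order of the samples the glands precede all sorted arrays at or above -0.1. Which of these features goes with Lss was not tested. In sorted primary tumors Fdft1 lay between 5.89 and 7.19 on the 4 arrays below -0.1 and between 7.68 and 8.68 on the 4 above it, whereas in sorted transplants its ranges overlapped (6.31 to 8.16 and 7.22 to 8.30). Dhcr7 did not split in that way, with ranges of 5.00 to 7.76 and 6.68 to 8.17 in the same tumors. Hmgcs1 was alike on both sides there, at 8.88 to 10.14 and 8.60 to 10.80.

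**Figure D3:**
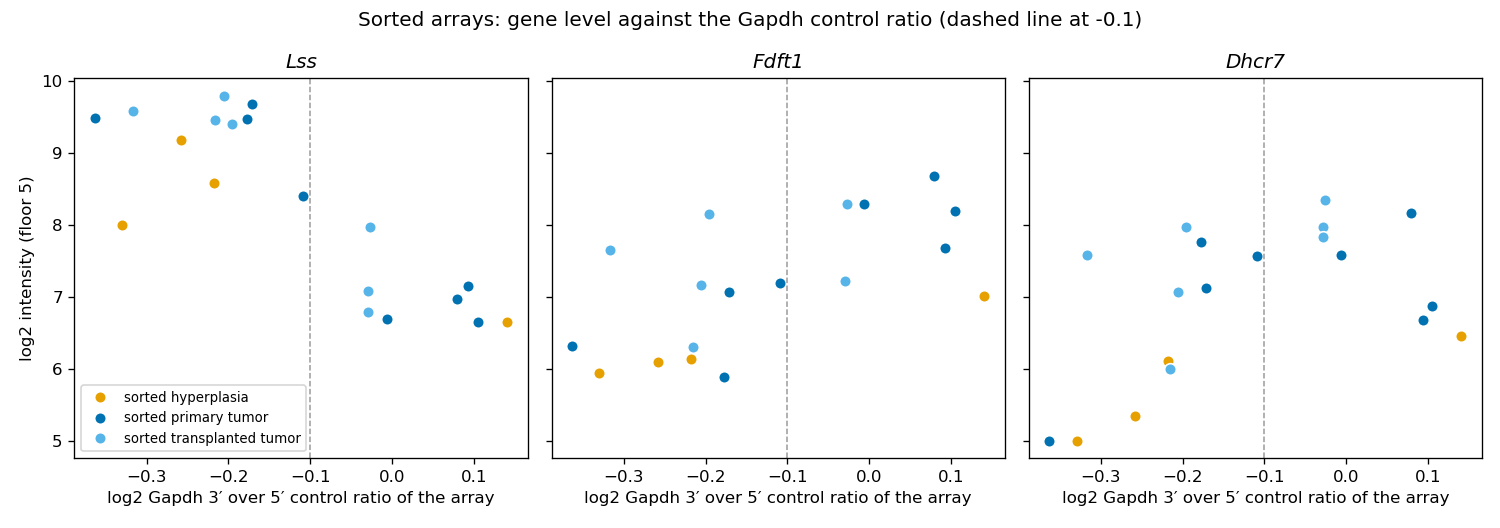
Log2 intensity of Lss, Fdft1 and Dhcr7 (y axis, floor of 5) against the log2 Gapdh 3′ over 5′ control ratio (x axis) of the 19 sorted arrays, coloured by group, with a dashed line at -0.1. Lss lies at 8.0 or higher on all arrays left of the line and at 7.98 or lower on all arrays right of it.

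The third comparison sets marked cells of some primary tumors against whole tissue of others. No mouse gave primary tumors to both groups, so sort and mouse of origin cannot be told apart here. Fdft1 and Dhcr7 were lower in sorted than in unsorted primary tumors, and the other 6 genes were not called, where 25.3% of all genes tested were called. Dhcr7 ran from 5.00 to 8.17 in the 8 sorted tumors and from 6.75 to 9.90 in the 22 unsorted ones. The groups overlapped, with 2 sorted tumors below the lowest unsorted one. Dhcr7 fell by 1.11 ± 0.31 on the log2 scale (adjusted p = 0.00661). Fdft1 ran from 5.89 to 8.68 in sorted and from 7.04 to 8.69 in unsorted tumors, again with 2 sorted tumors below the range. It fell by 0.76 ± 0.26 (adjusted p = 0.0269).

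These calls were not alike on the sorted arrays of low and high Gapdh ratio, a split chosen after seeing the data. With the low-ratio sorted arrays alone, Fdft1 fell by 1.38 (adjusted p = 0.000249), and with the high-ratio arrays alone it differed by 0.16 (adjusted p = 0.797). Dhcr7 fell by 1.26 (adjusted p = 0.0101) with the former and differed by -0.78 (adjusted p = 0.169) with the latter. Lss, not called over all arrays (0.70 ± 0.33, adjusted p = 0.122), rose by 1.60 with the low-ratio arrays (adjusted p = 3.67e-07) and fell by 0.70 with the high-ratio arrays (adjusted p = 0.0336). The ratios of unsorted tumors all lay on the high side. As the mean of its 4 probe sets, Fdft1 differed by -0.03 (adjusted p = 0.884). Its probe set 1438919_x_at was called in the opposite direction (0.33 ± 0.11, adjusted p = 0.0195), and 1438322_x_at differed by 0.02 ± 0.25. The former lay close to the floor, with means of 5.39 in sorted and 5.14 in unsorted primary tumors. Of all probe sets 24.4% were called in this comparison.

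Of the other genes, Fdps differed by -0.58 ± 0.30 (adjusted p = 0.156, and -0.84 with adjusted p = 0.0306 under the Actb covariate), Idi1 by -0.54 ± 0.30 (0.181), Sqle by -0.34 ± 0.26 (0.351), Cyp51 by -0.22 ± 0.31 (0.648) and Hmgcs1 by 0.09 ± 0.24 (0.831). The 7 macrophage markers summed to 1220 to 22000 in sorted and 1750 to 10900 in unsorted tumors, and the 9 proliferation genes to 1810 to 2960 and 1530 to 8180. Of the 7 luminal markers 4 were lower in sorted tumors, with a median difference of -0.69, and so was the milk protein gene Lalba. Of the proliferation genes 8 of 9 were lower in sorted tumors, among them Ube2c (-1.42 ± 0.28), Aurka (-1.41 ± 0.20) and Top2a (-1.32 ± 0.30), genes of mitosis and DNA unwinding. Whether these shifts bear on Dhcr7 and Fdft1 was not tested.

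Transplantation was examined within sorted and within unsorted tumors. Each of these comparisons shares its primary tumors with comparisons above. None of the 8 genes was called in either, against 0% of all genes in the sorted one (0 of 15150 by limma, 607 at an unadjusted p under 0.05) and 0.944% in the unsorted one (143 genes). Of the 8 genes none had an unadjusted p under 0.05 in either. All 8 fitted differences were above 0 in both, from 0.20 to 0.57 in sorted and from 0.07 to 0.71 in unsorted tumors. Over all genes tested 53.4% and 48.7% were above 0.

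In sorted tumors Idi1 had the largest difference. It ran from 7.08 to 9.58 in the 7 transplants and from 6.77 to 9.44 in the 8 primary tumors, ranges that overlapped almost fully. The difference was 0.57 ± 0.33 (95% interval -0.09 to 1.24, adjusted p = 1.0). Dhcr7 differed by 0.50 ± 0.35 and Cyp51 by 0.41 ± 0.34. Sqle and Lss had the smallest differences, 0.20 ± 0.29 and 0.22 ± 0.37.

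In unsorted tumors Fdps had the largest difference. Its levels were 8.12, 7.34, 9.15 and 8.55 in the 4 transplants and from 5.79 to 8.71 in the primary tumors, so that 1 transplant lay above the primary range. The difference was 0.71 ± 0.40 (95% interval -0.09 to 1.52, adjusted p = 0.576). Dhcr7 had levels of 8.50, 8.77, 8.79 and 8.86, all above the median of the primary tumors and inside their range, and differed by 0.53 ± 0.41 (adjusted p = 0.773). Sqle, at 9.89, 9.84, 9.34 and 9.55, differed by 0.38 ± 0.34 (adjusted p = 0.832). The 4 transplants came from 2 mice of origin.

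The difference between the sorted and the unsorted transplant effect was not called for any of the 8 genes, where 0.0858% of all genes were called. It was largest for Idi1 (0.38 ± 0.52, adjusted p = 0.945) and Fdps (-0.37 ± 0.53, adjusted p = 0.953), and its intervals reached at least 0.66 on both sides of 0 for all 8 genes.

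A few specimens allowed a direct look. Between tumor F433T4 and its first-passage transplant, both sorted, 7 of the 8 genes were lower in the transplant, by 0.13 to 0.69, and Sqle was 0.08 higher. In the 2 unsorted transplants named after CR115, 6 and 5 of the 8 genes were lower than in primary tumor CR115. The labels do not say that these transplants came from that tumor. The largest difference was in Fdps, at 7.83 in the primary and 9.15 and 8.55 in the transplants, which was higher, while Cyp51 went from 8.07 to 7.16 and 7.55. Between passages 2 and 4 of tumor D279T1, 7 of the 8 genes were lower at passage 4, where Hmgcs1 went from 9.75 to 8.88 and Lss from 9.58 to 7.08, the latter across the Gapdh ratio of -0.1. Each specimen is 1 array, apart from primary CR115, the mean of 2 arrays, and no test was made.

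The last comparison set sorted hyperplasia against whole wild-type glands, in which sort and stage cannot be told apart. None of the 8 genes was called by its brightest probe set, against 21.3% of all genes (3231). Of the 11 other probe sets 3 were called, against 20.1% of all probe sets. Fdft1 1438918_at (0.67 ± 0.22, adjusted p = 0.0231) and 1438919_x_at (0.57 ± 0.16, adjusted p = 0.00961) were higher in hyperplasia, and Cyp51 1422533_at was lower (-1.03 ± 0.30, adjusted p = 0.0108). Both Fdft1 probe sets lay close to the floor, with means of 5.11 and 5.0 in glands and 5.78 and 5.57 in hyperplasia. For Sqle 3 of 4 hyperplasia arrays lay below the lowest gland, with a difference of -0.82 ± 0.39 (adjusted p = 0.131). Lss differed by -1.05 ± 0.51 (adjusted p = 0.139), with 8.0, 8.59, 9.19 and 6.65 in hyperplasia. With the spike-in controls as a covariate Lss fell by 2.10 (adjusted p = 0.00194), and the single hyperplasia array of high Gapdh ratio differed from the glands by -2.5, a value of 1 array given with no test. Dhcr7, by contrast with its tumor levels, differed by 0.14 ± 0.47 (95% interval -0.81 to 1.09, adjusted p = 0.881).

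Ordered by group mean, Dhcr7 ran from glands (5.58 ± 0.34, SD, n = 5) and hyperplasia (5.73 ± 0.67, n = 4) through sorted primary (7.09 ± 0.98, n = 8), sorted transplanted (7.54 ± 0.79, n = 7) and unsorted primary tumors (7.98 ± 0.74, n = 22) to unsorted transplants (8.73 ± 0.16, n = 4). The steps from hyperplasia to sorted primary tumors and from unsorted primary to unsorted transplanted tumors exceeded the larger SD of the neighbours, and the others did not. Fdps had the same lowest and highest groups (5.84 ± 0.80 in glands, 8.29 ± 0.76 in unsorted transplants), with only the step from hyperplasia to sorted primary tumors beyond the SD. Sqle was lowest in hyperplasia (7.52 ± 0.82), then glands (8.34 ± 0.30), and highest in unsorted transplants (9.66 ± 0.26).

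For Idi1, Fdft1, Hmgcs1 and Cyp51 every step between neighbouring groups was within the larger SD. Idi1 ran from 7.46 ± 0.56 in glands to 8.68 ± 0.38 in unsorted transplants, Fdft1 from 6.30 ± 0.48 in hyperplasia to 8.18 ± 0.41 in unsorted transplants, and Cyp51 from 6.50 ± 0.24 in hyperplasia to 7.6 ± 0.44 in unsorted transplants. Hmgcs1 spanned the least, from 8.84 ± 0.31 in hyperplasia to 9.73 ± 0.69 in sorted transplants. Lss had another order, with unsorted primary tumors lowest (7.63 ± 0.39) and glands highest (9.15 ± 0.18), and its steps were within the SD, which exceeded 1 in all sorted groups.

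Genes with several probe sets did not give a single answer. Of the 21 probe sets 19 passed the filter, and 1422534_at of Cyp51 and 1438150_at of Fdps were at the floor on every array. Among the 11 probe sets tested beside the brightest, 1 was higher and 2 were lower in unsorted tumors than in glands, where 48.7% of 27537 probe sets were called by limma. The higher one was Fdft1 1438322_x_at (0.74 ± 0.29, adjusted p = 0.0318). The lower ones were Cyp51 1422533_at (-0.78 ± 0.23, adjusted p = 0.00347) and Hmgcs1 1433446_at (-1.37 ± 0.31, adjusted p = 0.000323), although their genes were not called by the brightest probe set.

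Hmgcs1 1433446_at ran from 8.17 to 9.20 in glands and from 6.22 to 8.20 in unsorted primary tumors, nearly without overlap. The 3 remaining ones beside the brightest gave 0.27 ± 0.27 for 1433444_at, 0.19 ± 0.26 for 1433445_x_at and -0.21 ± 0.18 for 1441536_at. The last was at the floor in all 22 unsorted primary tumors. On sorted hyperplasia arrays 1433446_at lay between 8.93 and 9.71 below the Gapdh ratio of -0.1 and at 6.88 on the 1 array above it. In sorted primary tumors its ranges on the 2 sides overlapped (8.52 to 9.06 and 7.08 to 8.96). It was higher in sorted than in unsorted tumors (0.89 ± 0.27, adjusted p = 0.0128). The positions of these probe sets along the transcripts were not examined.

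Within the 22 unsorted primary tumors many of the genes varied together. Of these tumors 4 (CR115, C393T1, D9 and D203T1) lay above the group median for all 8 genes and 4 (B459L, C117T3, C117T5 and C395T5) for none. Dhcr7 had a range of 3.16 over the tumors, Fdps of 2.93, Idi1 of 2.92 and Cyp51 of 2.90, whereas Fdft1 had 1.64 and Hmgcs1 1.76. The SD within a mouse (6 mice with several tumors, 14 tumors) exceeded the SD between mouse means for 5 genes, most for Sqle (0.60 and 0.34), Cyp51 (0.70 and 0.52) and Lss (0.41 and 0.28). It was smaller for Idi1 (0.50 and 0.63), Fdps (0.50 and 0.65) and Hmgcs1 (0.45 and 0.46).

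**Figure D4:**
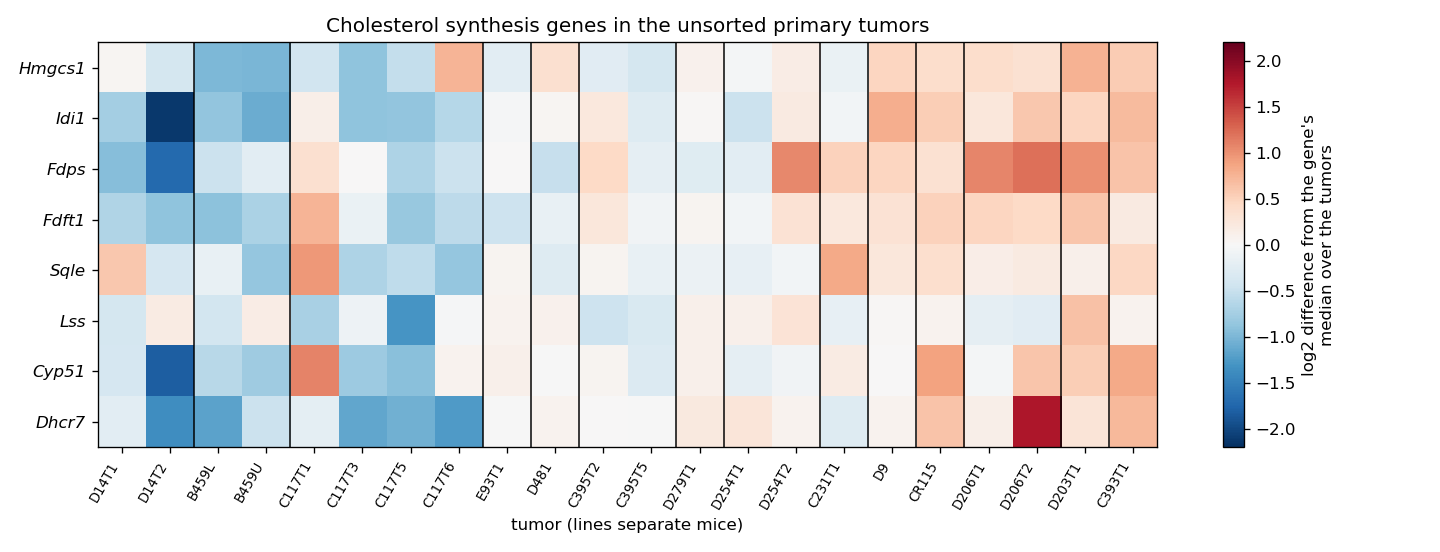
Log2 difference from the gene's median over the 22 unsorted primary tumors (colour) for each gene (rows) and tumor (columns), with lines between mice and mice ordered by their mean over all genes but Lss. Tumor D14T2 is low in Idi1 (6.31), Fdps (5.79), Cyp51 (5.38) and Dhcr7 (6.75) but not in Lss (7.92).

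Over the means of 14 mice, 14 of 28 pairs of these genes correlated at a Benjamini-Hochberg adjusted permutation p under 0.05 by Pearson's r and 15 by Spearman's rho, adjusted over 44 relations. How often pairs of other genes correlate in these tumors was not examined, so the counts are not read as particular to these genes. The closest pair was Idi1 and Cyp51 (r = 0.88, permutation p = 7e-05, adjusted p = 0.00198, rho = 0.78, permutation p = 0.00144, adjusted p = 0.0115). Without the 2 mice farthest from the median its r was 0.67. Idi1 and Fdft1 had r = 0.86 and rho = 0.75 (permutation p = 0.00015 and 0.00301, adjusted p = 0.0022 and 0.0147), and r = 0.66 without those mice. The median r over the 21 pairs without Lss was 0.74, and 0.58 without the farthest mice.

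The 7 pairs with Lss had r between 0.10 and 0.58, none with an adjusted permutation p under 0.05. The 6 pairs of Sqle with the other genes did not pass by Pearson's r either (0.40 to 0.54), although 3 of them passed by rho. The closest partner of Lss was Hmgcs1 (r = 0.58, permutation p = 0.033, adjusted p = 0.0968, rho = 0.52, permutation p = 0.0615, adjusted p = 0.129). Whether Lss correlated less than the others was not tested. With the mRNA levels of the SREBP genes, r ran from -0.26 to 0.19 for the 8 pairs with Srebf1 and from -0.17 to 0.44 for the 8 pairs with Srebf2, none past the adjusted threshold.

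Among tested genes outside the pathway lists, those most like the mean of the standardized 8 genes over the 22 unsorted primary tumors were Cox11 (r = 0.83), Rgs11 (0.80), Cyc1 (0.80), Trappc6a (0.80) and Dennd2d (0.77). Over the 8 sorted primary tumors they were Mcu (0.95), Papolg (0.93), Trim15 (0.93), Ovca2 (0.92) and Pfkfb3 (0.92). Cox11 and Cyc1 code for an assembly factor and a subunit of the mitochondrial respiratory chain. These values describe the tumors on hand, which share mice and arrays.

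The rest of the pathway was described from lists of genes chosen beside the 8. In unsorted tumors against glands, counts of called genes in these lists stand beside the 51% called over all genes (29.4% higher, 21.6% lower), and shares near it are no result about a list. Among 10 other enzymes of sterol synthesis 4 were higher and 1 was lower, with a median difference of 0.47. The largest rises were of Ebp, a sterol isomerase (1.27 ± 0.18, adjusted p = 7.07e-08), Pmvk, phosphomevalonate kinase (0.93 ± 0.19, adjusted p = 4.91e-05), and Nsdhl, a dehydrogenase of sterol demethylation (0.65 ± 0.24, adjusted p = 0.0217). The gene that fell was Mvd, mevalonate diphosphate decarboxylase (-0.53 ± 0.13, adjusted p = 0.000718), named after its value was seen. In sorted tumors against hyperplasia the list held 1 call, a fall of Lbr (-0.77 ± 0.21, adjusted p = 0.0208), a sterol reductase and lamin receptor. In the uptake and transport list Lipa, the lysosomal lipase that frees cholesterol from its esters, fell there as well (-1.91 ± 0.54, adjusted p = 0.0303). Both were higher in hyperplasia than in glands, Lbr by 0.67 ± 0.22 (adjusted p = 0.0251) and Lipa by 1.87 ± 0.58 (adjusted p = 0.0163). That comparison shares the hyperplasia arrays, and Mvd was lower in it (-0.72 ± 0.17, adjusted p = 0.00238). Of 7 macrophage markers 6 were also higher in hyperplasia than in glands, with a median difference of 2.18, and their part in the Lipa differences was not tested.

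**Figure D5:**
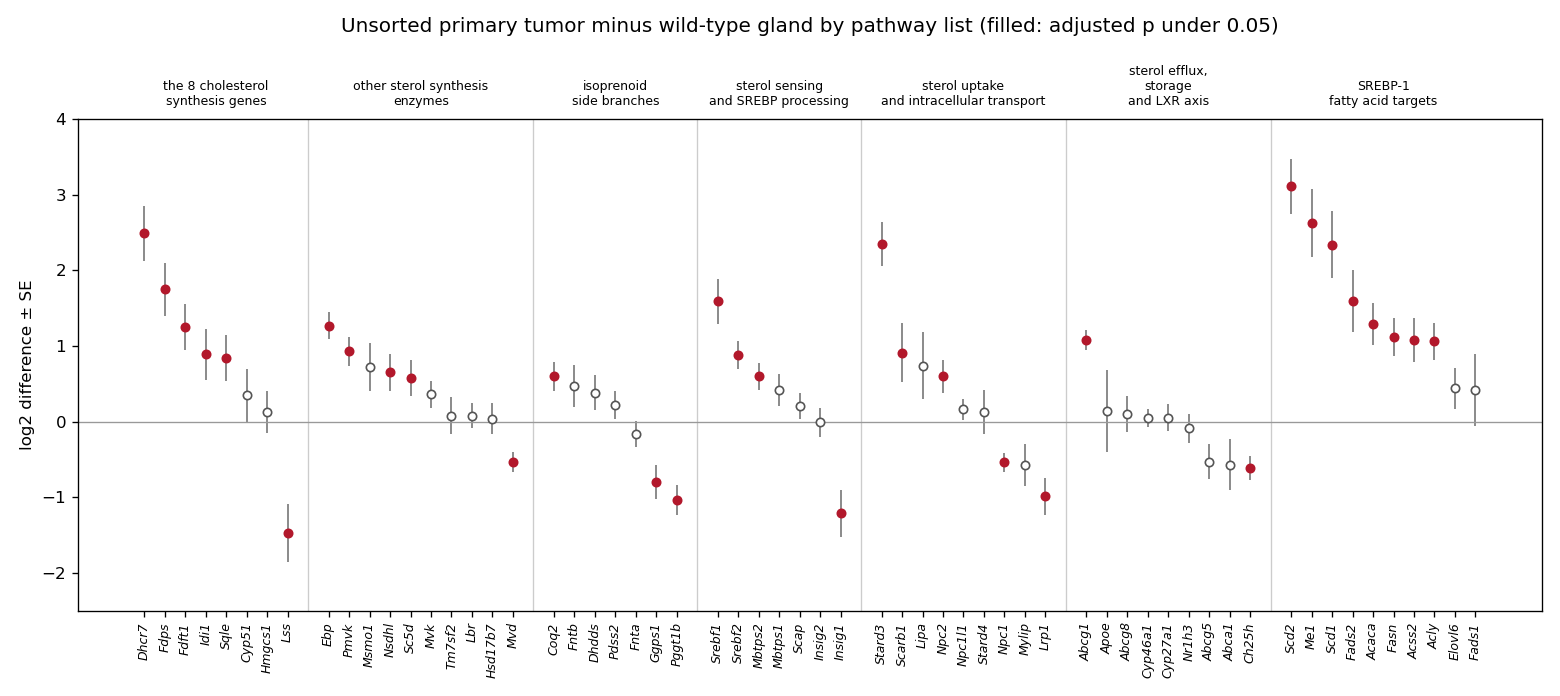
Log2 difference ± SE between unsorted primary tumors and wild-type glands (y axis) for the tested genes of 7 pathway lists (x axis), filled where the limma adjusted p is under 0.05. Lists of sterol genes hold both rises and falls, from Dhcr7 (2.49) to Lss (-1.47), whereas the called genes of fatty acid synthesis all lie above 0, up to Scd2 (3.11).

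Of 7 genes that sense sterol or process SREBP, 3 were higher and 1 was lower in unsorted tumors. Srebf1 rose by 1.59 ± 0.30 (adjusted p = 1.95e-05), with 9.27, 8.96, 8.69, 8.49 and 8.61 in glands and 9.26 to 11.53 in tumors. Srebf2, whose product favours sterol genes, rose by 0.88 ± 0.18 (adjusted p = 5.5e-05). Insig1, the retention factor and itself an SREBP target, fell by 1.21 ± 0.31 (adjusted p = 0.000954), from 8.40, 9.15, 9.08, 8.53 and 8.41 in glands to 6.24 to 8.76 in tumors. In sorted against unsorted tumors Insig1 was 1.07 ± 0.27 higher (adjusted p = 0.00231). Scap was 0.58 ± 0.15 higher there (adjusted p = 0.00331). Srebf2 fell by 0.43 ± 0.15 (adjusted p = 0.0333) by its brightest probe set. The other probe set of Srebf2 had the opposite order of group means. They were 8.2 in sorted and 7.95 in unsorted primary tumors, with SDs of 0.43 and 0.39. No fitted difference is given for that probe set.

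Of 9 genes of sterol uptake and intracellular transport, 3 were higher and 2 lower in unsorted tumors. Stard3, a late endosomal sterol carrier, rose by 2.35 ± 0.29 (adjusted p = 4.88e-09) and Scarb1, the HDL receptor, by 0.91 ± 0.39 (adjusted p = 0.0436), while Lrp1, a lipoprotein receptor, fell by 0.99 ± 0.25 (adjusted p = 0.000756). Of 9 genes of efflux and storage 1 was higher, the exporter Abcg1 (1.08 ± 0.13, adjusted p = 7.07e-09), and 1 lower, Ch25h, an oxysterol-making hydroxylase (-0.61 ± 0.16, adjusted p = 0.00162). Of 7 genes of isoprenoid side branches 1 was higher, Coq2 of ubiquinone synthesis (0.60 ± 0.19), and 2 lower, Pggt1b (-1.04 ± 0.20) and Ggps1 (-0.80 ± 0.22), which serve protein geranylgeranylation.

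Genes of fatty acid synthesis that SREBP-1 activates were higher in 8 of 10 cases, with a median difference of 1.2. Scd2 (3.11 ± 0.36), Me1 (2.63 ± 0.45) and Scd1 (2.34 ± 0.44) led them. All 9 proliferation genes tested were higher as well, with a median of 2.42. In hyperplasia against glands, where none of the 8 genes was called, 7 of the 9 proliferation genes were higher, and of the fatty acid genes none was called. No gene of the 8 pathway lists was called in either transplant comparison.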

How the data were processed

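RNA of 51 mouse mammary samples was measured on Affymetrix arrays. The deposited table holds 1 intensity per probe set and array, on a linear scale. No source used here says how the authors summarized and scaled these intensities. Per the labels' protocols, RNA was extracted with Trizol and cleaned on columns. Of 45101 probe sets, 64 are controls, 34944 have 1 gene symbol, 932 several and 9160 none listed, and 1 with extreme values was left out. Symbols were updated through Entrez IDs for 34740 probe sets.

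Intensities under 32 were set to 32 (37.4% of values) and log2 transformed. Each gene was represented by its brightest probe set. Genes above the 40th percentile of an array on at least 4 arrays were tested (15150 of 18192). A single limma fit (limma 3.58.1, R 4.3.3) held all 6 groups, the source mouse entering as a random block (consensus correlation 0.358) and Benjamini-Hochberg adjustment over all genes. The 2 arrays of tumor CR115 (r = 0.989) were averaged, leaving 50 replicates. Correlations used 100000 permutations in Python 3.11.15 with numpy 2.4.6 and pandas 2.3.3, and matplotlib 3.10.9 drew the figures. Before use, the model was tested on simulated data. Array number limits the precision.

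Named are the 8 genes, Srebf1 and Srebf2, up to 3 called genes of each other pathway list per comparison by absolute difference, and 5 genes of most similar pattern per tumor group. Members and lists were chosen with earlier results of these data known. Alternatives were other floors, probe set rules, normalization, blocks, groups, filters, covariates and left-out arrays.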

Additional observations from a re-analysis of the deposited data

Results flagged for a closer look

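In 40 tests of the lowest or highest replicate of a group, 2 values passed Dixon's 95% critical value, where chance flags about 1 in 20 groups. Fdps in hyperplasia replicate 1 was 5.36, with the nearest replicate at 6.44 (gap over range 0.842). That array also had the lowest Sqle level of its group and the brightest spike-in controls. Dhcr7 in sorted primary tumor replicate 2, F405T, was at the floor of 5.00, with the nearest tumor at 6.68 (gap over range 0.53). The cause was not tested for either value.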

How the results depend on the processing

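Of 920 recomputed differences of single genes, 840 kept their direction and their side of the threshold; the cause of the other changes was not tested. No paired analysis was possible because replicate numbers only name samples and few specimens lie in more than 1 group; shared mice entered as the random block. Between hyperplasia and sorted tumors, 0 genes were called with these groups alone, the spike-in covariate, either Gapdh class of sorted arrays or hyperplasia arrays 1 and 2 left out (0 to 1 without single replicates), and signs turned for Lss without the mouse block (-0.04) and without hyperplasia replicate 4 (-0.22 to 0.63 over single replicates left out), and in low-Gapdh arrays for Idi1 (-0.13) and Cyp51 (-0.02). Between unsorted tumors and glands, 4 to 6 were called without single replicates, and Hmgcs1 turned with the Actb covariate (-0.05), mean of probe sets (-0.20) and quantile normalization (-0.01), Cyp51 with the mean of probe sets (-0.15). Between sorted and unsorted tumors 1 gene was called with these groups alone, the mean of probe sets, no mouse block, high-Gapdh arrays or the spike-in covariate. Signs there turned for Hmgcs1 with the Actb covariate (-0.04), Cyp51 with the mean of probe sets (0.04) and no mouse block (0.05), and in high-Gapdh arrays for Idi1 (0.02), Fdft1 (0.16), Sqle (0.02), Lss (-0.70) and Cyp51 (0.43). In the sorted transplant comparison, high-Gapdh arrays turned Fdps (-0.03) and Fdft1 (-0.22). In the unsorted one, Fdft1 turned with the Actb (-0.03) and spike-in (-0.10) covariates and without transplant 2 (-0.02 to 0.26 over single replicates left out), and Lss with the Gapdh covariate (-0.01) and without transplant 1 (-0.01 to 0.19).

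Between hyperplasia and glands 1 gene, Lss, was called with the spike-in covariate, and 1 in high-Gapdh arrays, where hyperplasia has 1 array, assumed to vary like the other groups, so that this count says little. Idi1 turned with the Actb (-0.39) and Gapdh (-0.08) covariates, in high-Gapdh arrays (-0.20), without hyperplasia arrays 1 and 2 (-0.13), and without hyperplasia 1 or 2 or gland 4 or 5 (-0.10 to 0.25 over single replicates left out). Fdps turned with the Actb covariate (-0.32) and a floor of 100 (-0.04), Dhcr7 with that floor (-0.00), in low-Gapdh arrays (-0.10), and without hyperplasia 4 or gland 5 (-0.10 to 0.38). Fdft1 turned with the mean of probe sets (0.26), high-Gapdh arrays (0.32) and the spike-in covariate (0.24), as did Cyp51 with the last (0.11). The difference of transplant effects turned with the mean of probe sets for Hmgcs1 (-0.03), Fdft1 (-0.01) and Lss (-0.08), with no mouse block for Hmgcs1 (-0.21), Idi1 (-0.10), Fdft1 (-0.12) and Cyp51 (-0.21), in high-Gapdh arrays for Hmgcs1 (-0.09), Idi1 (-0.07), Fdft1 (-0.37) and Dhcr7 (0.11), with the spike-in covariate for Lss (-0.13) and Dhcr7 (0.05), with quantile normalization for Dhcr7 (0.05), and without unsorted transplant 3 for Hmgcs1 (-0.03 to 0.21) and Cyp51 (-0.02 to 0.36). Levels near the floor limit Dhcr7 and Fdps in glands and hyperplasia.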
